A study of Mus musculus with 8 samples.

Results

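The regions described here lie around the 7 genes Maf, Maff, Mafg, Mafk, Bach1, Bach2 and Nfe2l2, in a deposited list of FOS binding regions from mouse microglia. A region was taken when its centre lay inside the gene body or within 100 kb of it on mm10, and 114 of the 32773 listed regions met this rule. Of the 114, 103 held a FOS peak alone (FOS-only), 7 held both a FOS peak and a peak of a second list named for IL-33 against vehicle (shared), and 4 held a peak of that second list alone (IL-33-only). The member was the nearest coding gene, or overlapped the region, in 68 of the 114, and another coding gene was nearer in the remaining 46.

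FOS was mapped by chromatin immunoprecipitation and sequencing in microglia, the resident macrophages of the brain, sorted from the cortex of 4 mice. All 4 mice were at postnatal day 30 and had received IL-33, an alarmin cytokine, into a ventricle on 1 side 4 h earlier. The labels used here give no strain, sex or genotype. Each mouse gave 1 FOS library and 1 input library, so all 8 libraries come from IL-33-injected mice and none from vehicle-injected mice was analysed here. The deposited table holds 1 value per merged region and 0 columns with a value per library, so library depth is unknown and values carry no error between mice. The FOS peak names end in a number from 1 to 4, read here as the number of libraries holding the peak and given as its calls. The score is a ranking statistic of unstated scale, restored as described with the processing, and it cannot tell a site bound in more of the cells from a site bound more strongly in each.

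The 7 genes encode relatives of FOS with the same basic leucine zipper fold. NRF2, the product of Nfe2l2, is the main activator of antioxidant and detoxifying genes and is held in check by KEAP1 until oxidants or electrophiles release it. BACH1 and BACH2 are repressors that bind the same elements, BACH1 being displaced by heme at Hmox1, and BACH2 being best known from lymphocytes. MAFF, MAFG and MAFK are small MAF proteins without an activation domain, which pair with NRF2 or a BACH factor to bind DNA, while c-MAF, the product of Maf, is a large MAF with its own activation domain and is expressed in macrophages. The elements these dimers bind contain a core close to the AP-1 site that FOS binds with JUN partners.

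Sequence was at hand for the promoters of 6 of the 7 genes, none being given for Maf, as windows from 250 bases before to 50 bases after an annotated start in RefSeq (GRCm38.p6, the same assembly as mm10). Of the 8 promoters of these genes, 4 overlapped a FOS region, as did 5820 of the 21263 promoters of coding genes. The 4 are shown because they are those of the 8 given promoters that a FOS region reached. The overlap covered 292 and 250 of the 300 bases at the starts 2 and 3 of Maff, the last 88 at Mafk and the last 148 at Bach1. For Bach2 the only promoter given has its start inside the gene body, at 32417435, and none was given for the end where the gene model begins. All 4 are on the plus strand and all 4 overlapping regions were FOS-only. Capitals mark matches, on either strand, to the palindromic cyclic AMP response element TGACGTCA, to GGANTTTCC, a core of NF-kappaB sites, or to TGACNNNGC, the core of the antioxidant response element bound by NRF2 and small MAF dimers.
Maff, start 2 (chr15:79347270-79347569): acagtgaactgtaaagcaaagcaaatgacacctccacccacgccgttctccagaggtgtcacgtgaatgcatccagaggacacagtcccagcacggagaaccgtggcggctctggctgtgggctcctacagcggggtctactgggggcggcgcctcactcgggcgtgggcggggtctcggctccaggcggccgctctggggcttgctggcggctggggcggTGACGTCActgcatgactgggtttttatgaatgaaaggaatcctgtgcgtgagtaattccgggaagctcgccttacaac
Maff, start 3 (chr15:79348152-79348451): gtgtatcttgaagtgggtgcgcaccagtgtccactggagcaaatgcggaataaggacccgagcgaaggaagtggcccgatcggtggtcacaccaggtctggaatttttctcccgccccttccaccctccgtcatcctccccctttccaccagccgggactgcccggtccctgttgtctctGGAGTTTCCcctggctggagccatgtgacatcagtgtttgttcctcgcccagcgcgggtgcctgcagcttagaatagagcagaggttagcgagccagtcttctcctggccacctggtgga
Mafk (chr5:139791286-139791585): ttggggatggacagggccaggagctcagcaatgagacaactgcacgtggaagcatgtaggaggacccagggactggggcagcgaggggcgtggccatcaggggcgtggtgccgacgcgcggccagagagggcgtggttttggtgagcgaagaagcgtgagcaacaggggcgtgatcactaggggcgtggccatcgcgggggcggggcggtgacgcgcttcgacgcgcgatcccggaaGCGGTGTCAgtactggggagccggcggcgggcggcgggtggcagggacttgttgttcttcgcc
Bach1 (chr16:87698704-87699003): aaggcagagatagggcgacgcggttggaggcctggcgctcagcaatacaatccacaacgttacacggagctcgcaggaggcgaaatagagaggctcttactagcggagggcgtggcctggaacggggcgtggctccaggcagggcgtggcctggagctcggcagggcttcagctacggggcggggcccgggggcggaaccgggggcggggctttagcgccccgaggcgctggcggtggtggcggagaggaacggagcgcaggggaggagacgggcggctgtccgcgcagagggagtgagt

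The start 2 promoter of Maff held TGACGTCA at bases 222 to 229, counted from 1 at the 5′ end, which is 56 bp from the centre of its FOS region (chr15:79347278-79347598, score 22.4, 1 call). The start 3 promoter of Maff held GGAGTTTCC at bases 181 to 189, 100 bp from the centre of a FOS region of 2 calls and score 26.5. The Mafk promoter held GCGGTGTCA at bases 238 to 246, a reverse match to TGACNNNGC that lay 106 bp from the centre of its region (score 23.1, 1 call). The Bach1 promoter, whose FOS region scored 30.1 from 1 call, held no match to any of the 8 motifs searched. The classic AP-1 site TGACTCA and its looser form TGANTCA were in none of the 8 promoters, nor was GCTGANTCA, an AP-1 core with part of a MAF flank, GAGGAAGT, a PU.1 site, or TGACGTCA outside the start 2 promoter of Maff. TTGCNNAA, a C/EBP site, was in the start 1 promoter of Maff alone, and TGACNNNGC was also in the start 1 Maff, the Mafg and the Nfe2l2 promoters, which no FOS region overlapped. The motifs overlap in part, since TGACTCA is one form of TGANTCA and both can lie within GCTGANTCA or TGACNNNGC. Over all 21263 promoters of coding genes, TGACGTCA was in 2.23%, TGACNNNGC in 12.98%, GGANTTTCC in 1.28%, TTGCNNAA in 10.2%, TGACTCA in 4.66%, TGANTCA in 6.99%, GCTGANTCA in 1.08% and GAGGAAGT in 3.13%. These are matches of letters in a window and not measured binding sites.

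All 7 genes had a FOS region in their window, as did 79.5% of all 21887 coding genes, so this count by itself sets them little apart. A FOS region of 4 calls stood in the windows of 6 of the 7, Mafk being without, against 49.1% of coding genes. A shared region stood in the windows of 4 of the 7, Nfe2l2, Bach1, Bach2 and Maff, against 14.7% of coding genes. The same 4 genes were those with any region of the IL-33 list, against 19.1% of coding genes. The windows of the 7 also held more FOS regions, a median of 16 against 5 over all coding genes. A fuller window has more places for a region of 4 calls or a shared region. How far region number alone gives these counts was not tested. No test was run on these counts, since members were chosen with results known and windows differ in length, that of Bach2 spanning 548 kb and those of the other members 204 to 234 kb.

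**Figure D1:**
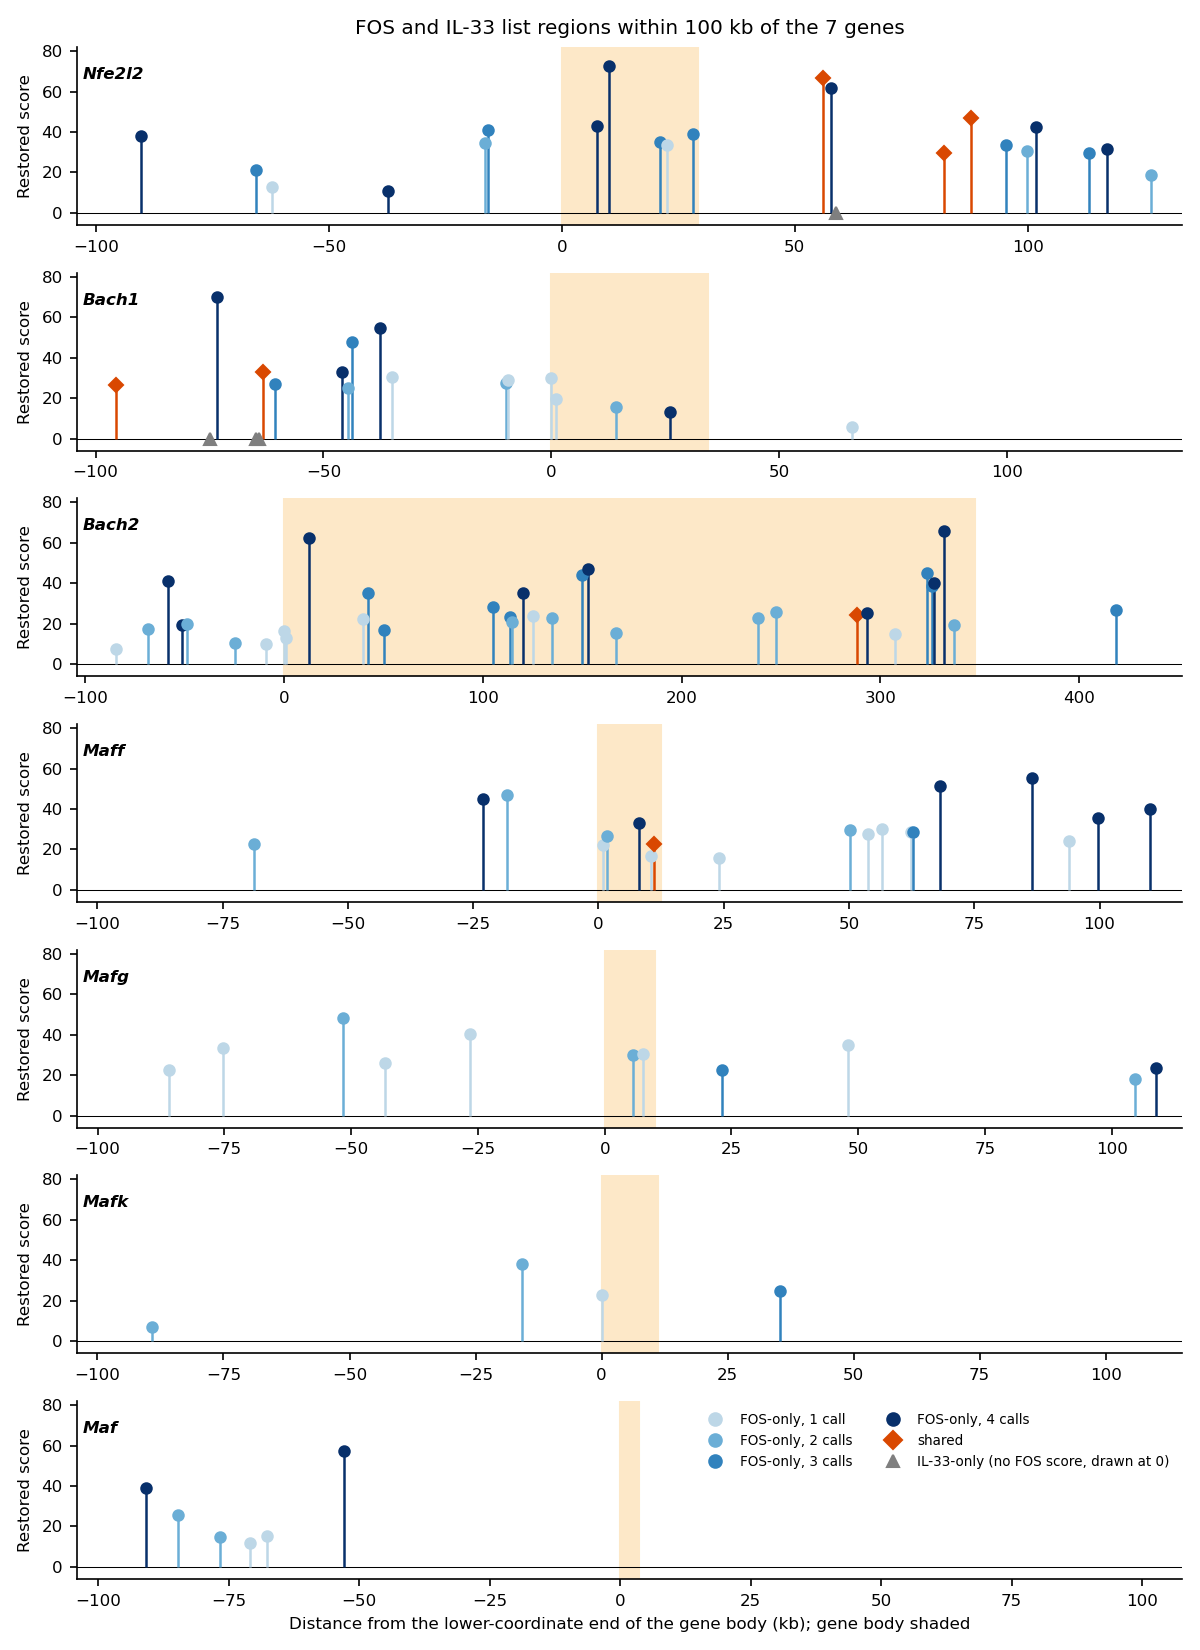
Regions around each of the 7 genes, plotted by distance in kb from the lower-coordinate end of the gene body (shaded) and by restored score, with the shade of each point giving the number of FOS calls, diamonds marking shared regions and triangles IL-33-only regions, which have no FOS score and are drawn at 0. Shared regions of Nfe2l2 and Bach1 lie outside the gene body, those of Bach2 and Maff inside it, and all 6 regions of Maf lie on 1 side.

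Nfe2l2 (chromosome 2, 75675513 to 75704663, minus strand) carried the highest score and the most shared regions of the 7 genes. Its window held 22 regions, of which 18 were FOS-only, 3 shared and 1 IL-33-only. The 21 FOS regions ranged from 10.8 to 72.8 with a median of 34.5, and 8 of them came from 4 calls. At 9.16 FOS regions per 100 kb, the window was denser than that of 99.3% of coding genes. At least 3 shared regions were present in the windows of 2.23% of coding genes, and among the 7 members in that of Nfe2l2 alone.

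Inside the Nfe2l2 body lay 5 FOS-only regions, and none of the IL-33 list. The highest, at chr2:75685470-75685797, scored 72.8 from 4 calls and ranked 327 among 31473 FOS regions. A second region of 4 calls, 2533 bp from it, scored 42.8. The remaining 3 scored 35.0, 33.7 and 39.2, and the last of these lay 1040 bp from the annotated start (chr2:75703417-75703829, 3 calls). The annotated promoter itself was not overlapped.

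The IL-33 list regions of Nfe2l2 all lay upstream of the gene, on its higher-coordinate side. The nearest formed a group with its centres 26861 to 29682 bp from the gene. In it, a shared region of 869 bp at chr2:75731090-75731959 scored 66.5 from 4 calls, ranking 520, and joined 2 peaks of the IL-33 list. Next to it stood a FOS-only region of 4 calls scoring 62.0 (chr2:75733232-75733552) and, 953 bp from it by centre, the IL-33-only region (chr2:75734095-75734595). Farther upstream were shared regions scoring 29.8 from 2 calls (52848 bp away) and 47.0 from 3 calls (58809 bp away). Nfe2l2 was the nearest coding gene for all 4. The remaining 6 upstream FOS regions scored 18.6 to 42.5 and were nearer to Agps, an enzyme gene of ether lipid synthesis, than to Nfe2l2. On the downstream side, 6 FOS-only regions scored 10.8 to 40.8, with Hnrnpa3, an RNA-binding protein gene, or the gene model Gm50595 nearest.

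Bach1 (chromosome 16, 87698954 to 87733346, plus strand) had 19 regions, namely 14 FOS-only, 2 shared and 3 IL-33-only. Its 16 FOS regions ranged from 5.81 to 69.9, with a median of 28.2 and 6 of 4 calls, and at 6.83 per 100 kb their density exceeded that of 95.5% of coding genes. All 5 IL-33 list regions lay 63160 to 95578 bp upstream, where Map3k7cl was the nearer coding gene. Assignment by nearest gene therefore leaves Bach1 without a shared region.

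Within that upstream stretch, the top FOS region of the Bach1 window (chr16:87625345-87625665, FOS-only, 4 calls) scored 69.9 and ranked 405, with an IL-33-only region 1436 bp from it. A tight group followed, made of IL-33-only regions at chr16:87633994-87634494 and chr16:87634664-87635164 and a shared region at chr16:87635395-87636193, which scored 32.9 from 4 calls. The other shared region, 95578 bp from Bach1 and so close to the edge of the window, scored 26.5 from 4 calls. Nearer to Bach1, 7 FOS-only regions between 9461 and 45850 bp upstream scored 25.1 to 54.7, the highest from 4 calls at chr16:87661114-87661434. The Bach1 body held 4 FOS-only regions, 1 at the promoter shown above and the others scoring 19.5, 15.5 and 13.1. The last of these had 4 calls, so a low score also occurred among recurrent regions. A single region lay downstream and scored 5.81.

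Bach2 (chromosome 4, 32238413 to 32586109, plus strand) had the largest number of regions, 33, all with a FOS peak, and the longest body. It was the nearest coding gene for 32 of them, and 25 lay inside it. Scores ranged from 7.65 to 66.0, with a median of 23.5, and 9 regions came from 4 calls. By count the window exceeded 99.97% of coding genes, and by density, at 6.03 per 100 kb, 92.3%. The 9 regions of 4 calls ranged from 19.4 to 66.0.

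FOS regions lay in both the lower and the upper part of the Bach2 body. The widest stretches free of them were between 32288702 and 32343221 and between 32405508 and 32476568, the second holding the only start given with the promoters. At the lower end, where the gene model begins, a region at chr4:32238379-32238699 overlapped the boundary with a score of 16.4 from 1 call, and farther in stood 1 of 62.6 from 4 calls (chr4:32250990-32251338). The only start given with the promoters, at 32417435 and so inside the body, lay 12088 bp from the closest FOS region. No promoter was given for the lower end of the gene model. The highest score, 66.0 from 4 calls, was at chr4:32570010-32570330, in a group of 5 FOS-only regions between 32561600 and 32575551 whose other members scored 45.1, 38.9, 40.4 and 19.7. The shared region of Bach2, at chr4:32526422-32526922, scored 24.3 from 4 calls and so ranked 11916 among FOS regions, below all but 1 of these FOS-only neighbours. A FOS-only region of 4 calls stood 4987 bp from it and scored 25.6.

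**Figure D2:**
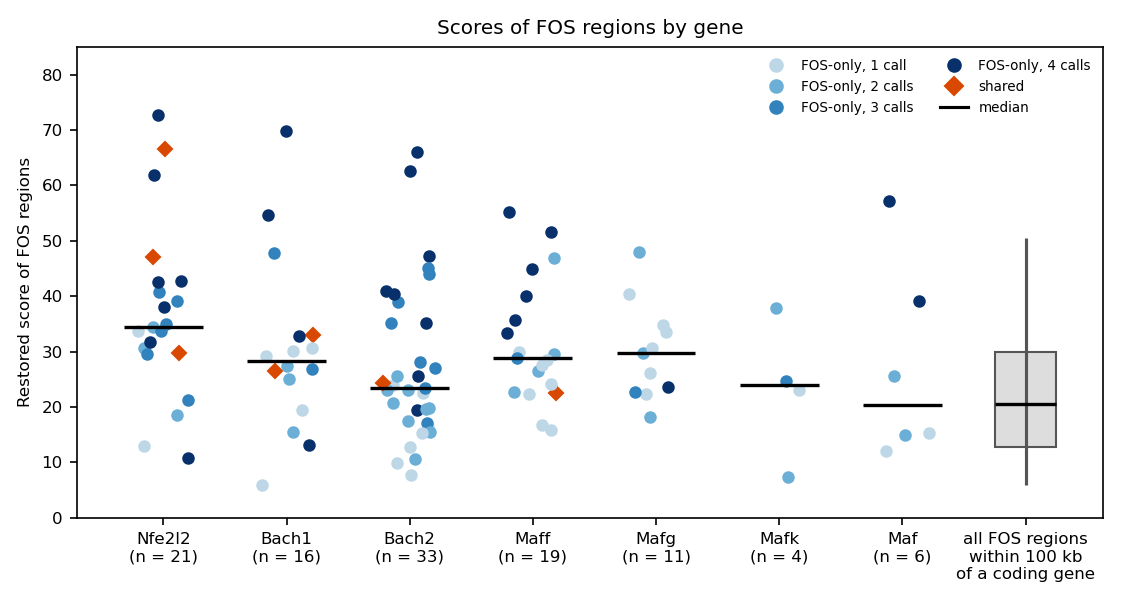
Restored scores of the FOS regions around each gene (points, coloured by number of calls, with shared regions as diamonds and black bars for medians), beside all FOS regions within 100 kb of a coding gene (box from lower to upper quartile, line from the 5th to the 95th percentile). Medians run from 20.4 at Maf to 34.5 at Nfe2l2, against 20.6 for all, and every gene has regions both above and below the median of all.

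Among the small MAF genes, Maff stood apart from Mafg and Mafk in number of regions. Maff (chromosome 15, 79346621 to 79359078, plus strand) had 19 regions, 18 FOS-only and 1 shared, and Mafg and Mafk had 11 and 4, all FOS-only. Densities were 8.94, 5.24 and 1.89 FOS regions per 100 kb for Maff, Mafg and Mafk, above those of 99.2%, 87.9% and 49.7% of coding genes. Regions of 4 calls numbered 6, 1 and 0 in that order. These genes are 3 single loci and the differences between them were not tested.

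The Maff body, 12458 bp long, held 5 regions. The pair at the starts 2 and 3 are those printed above. A region of 4 calls at chr15:79354610-79354947 scored 33.3, and a region of 1 call at chr15:79356976-79357278 scored 16.7. The shared region, chr15:79357476-79357976, lay 599 bp from that one by centre and scored 22.5 from 1 call, with its IL-33 list peak 10 bp from its FOS peak. The higher scores of the window lay outside Maff, at 45.0 and 46.9 in Pla2g6, a phospholipase gene 18240 to 22998 bp upstream, and at 55.1 and 51.6 beside or in Csnk1e, the casein kinase gene 55682 to 74039 bp downstream. Further regions of 4 calls in or beside Csnk1e scored 35.7 (chr15:79446236-79446585) and 40.1 (chr15:79456557-79456923). Another coding gene was the nearest for all 14 regions outside the Maff body.

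Mafg (chromosome 11, 120625117 to 120634955, minus strand) lies among many genes, with 19 other coding genes reaching into its window. Its 11 FOS regions scored 18.3 to 48.0, and 8 of them were within 1 kb of an end of a coding gene, in each case of a neighbour. The highest stood 219 bp from P4hb, which encodes protein disulfide isomerase. In Mafg itself lay regions scoring 29.8 from 2 calls and 30.6 from 1 call, the second of them 781 bp from the annotated start. The single region of 4 calls scored 23.5 and lay 98866 bp away, close to Cbr2.

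Mafk (chromosome 5, 139791536 to 139802653, plus strand) had the fewest, 4 FOS regions at 7.28, 38.0, 23.1 and 24.7 from lower to higher coordinate. That at 23.1 is the promoter region shown above and the only 1 to which Mafk was nearest. That at 38.0 lay in Ints1, an Integrator subunit gene.

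Maf (chromosome 8, 115703253 to 115706894) had no region in its body or within 10 kb, and was the only gene of the 7 for which this held. The share of all coding genes without a region within 10 kb is not given, so this is not compared. The 6 FOS-only regions of Maf all lay on the lower-coordinate side, 52858 to 90917 bp away, in a window with no other coding gene. From lower to higher coordinate they scored 39.1, 25.5, 14.9, 12, 15.2 and 57.2. The outermost and the innermost were the ones with 4 calls, and the innermost, chr8:115650218-115650572, ranked 967 among FOS regions. The density, 2.95 per 100 kb, exceeded that of 64.6% of coding genes.

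**Figure D3:**
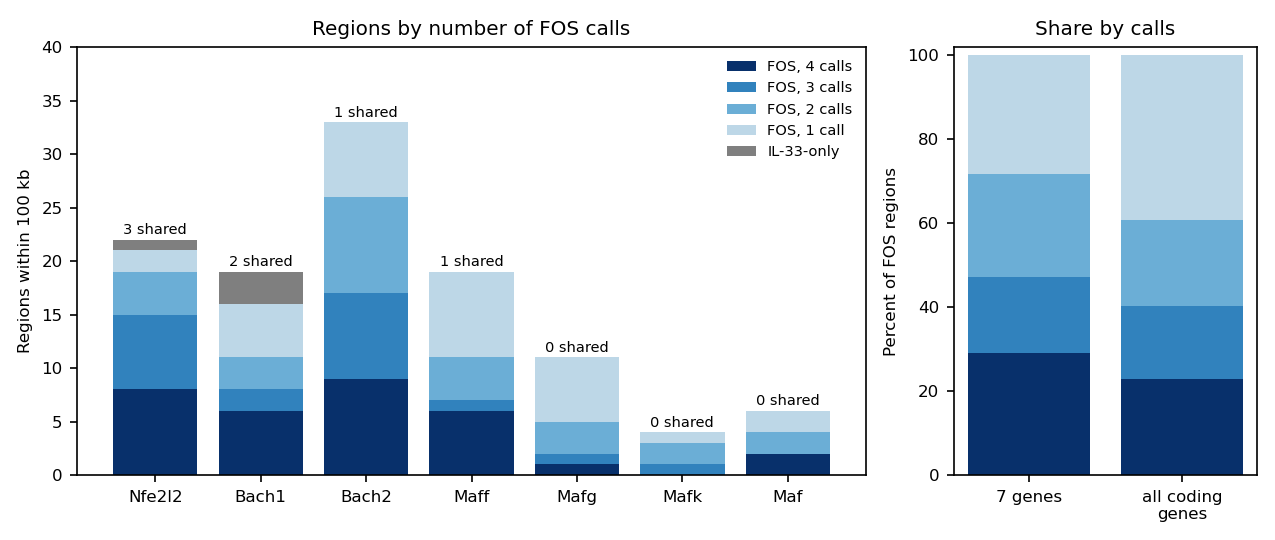
Left, regions within 100 kb of each gene stacked by number of FOS calls, with IL-33-only regions in grey and the number of shared regions above each bar; right, the percent of FOS regions by calls at the 7 genes and over all FOS regions within 100 kb of a coding gene. Regions of 4 calls make up 29.1% at the 7 genes and 23.0% over all coding genes, and single-call regions 28.2% and 39.2%.

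Over the 7 genes together, the median score was higher than over all FOS regions, while the share of shared regions was close to the general one. Of 110 FOS regions, 32 came from 4 calls (29.1%, exact 95% interval 20.8 to 38.5), against 23.0% of the 29688 FOS regions within 100 kb of any coding gene, a value inside the interval. The median score was 28.3, against 20.6 over all such regions. Within 4, 3, 2 and 1 calls the medians were 40.2, 31.6, 23.1 and 22.5 at the 7 genes, against 35.7, 24.9, 19.6 and 12.9 over all. A score of 29.9, the upper quartile of all, was reached by 47 of the 110. These are descriptions of 1 merged list without a test.

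Shared regions made up 7 of the 114 (6.14%, exact interval 2.50 to 12.2), against 4.69% of all 30931 regions within 100 kb of a coding gene, a value inside the interval. The interval treats regions as independent, although 3 of the 7 lay at Nfe2l2 and 2 at Bach1, so it may be too narrow. The 7 shared regions scored 22.5 to 66.5 with a median of 29.8, and the 103 FOS-only regions 5.81 to 72.8 with a median of 28.2. The IL-33 list peak lay 10, 20, 27, 39, 49, 100 and 373 bp from the nearest FOS peak of its region, the widest of these gaps being in the upstream group of Bach1. The 100 bp belongs to the Nfe2l2 region that joined 2 IL-33 list peaks and is the gap of the nearer peak. The 4 IL-33-only regions were 880, 953, 1436 and 1550 bp from the nearest FOS region by centre. Nearest coding gene was the member for 5 of the 7 shared regions.

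The position of FOS regions relative to genes depended on the window. Within 1 kb of an end of any coding gene lay 19 of the 110 FOS regions (17.3%, exact interval 10.7 to 25.7), against 23.3% of all, and 8 of the 19 were in the Mafg window. Inside a coding gene lay 61 (55.5%, 45.7 to 64.9), against 62.4% of all. At 100 kb, both shares of all regions lie inside the counting intervals of the 7 genes. Within 10 kb of a member, where 26 of the 45 FOS regions were those of the long gene Bach2, 8.89% (2.48 to 21.2) lay near a gene end, against 28.6% of all FOS regions within 10 kb of a coding gene. Without Mafg the share near a gene end at 100 kb was 11.1% (5.68 to 19.0), and the 23.3% of all lies outside that interval. None of the 7 shared and 4 IL-33-only regions was within 1 kb of a listed start of its member. The share over all shared and IL-33-only regions is not given, so this count is not compared.

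**Figure D4:**
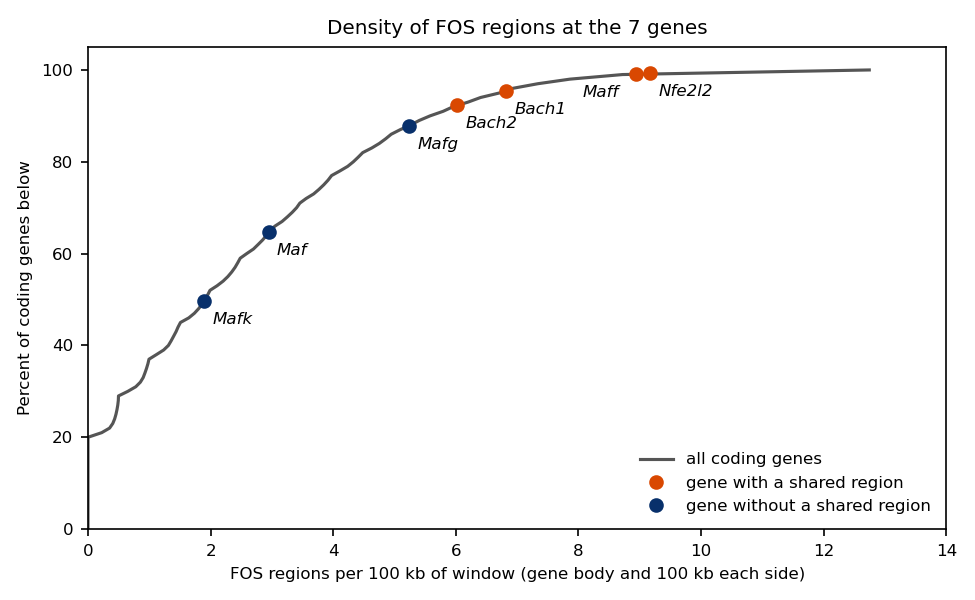
Density of FOS regions in the window of each gene (x axis, regions per 100 kb) against the percent of coding genes with a lower density (y axis), with the curve for all 21887 coding genes. The genes with a shared region, Nfe2l2, Maff, Bach1 and Bach2, lie at 6.03 or above, and Mafg, Maf and Mafk lie at 5.24 or below.

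The edge of the window mattered for Mafg. The first region beyond its 100 kb limit, 105208 bp away, was a shared region of 2 calls scoring 25.5. Mafg is thus without one under the windows used here, and a slightly wider window would give it one. Just outside the other windows lay FOS-only regions at 105903 bp for Maf (26.7), 103143 bp for Maff (19.8) and 101163 bp for Bach1 (14.9). Just inside were regions at 90917 bp for Maf (39.1), 98866 bp for Mafg (23.5), 97662 bp for Maff (40.1) and the shared region of Bach1 at 95578 bp.

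Other genes of the pathway were counted in the same windows from lists chosen with earlier results known. Their counts are to be read beside the 79.5% of all coding genes with a FOS region in the window and the 49.1% with 1 of 4 calls. The CNC and MAF relatives Nfe2, Nfe2l1, Nfe2l3, Mafa and Nrl all had FOS regions, 4 of these 5 had 1 of 4 calls and 0 of 5 had a shared region. Nfe2, an activator of globin and platelet genes, had the highest score of this group, 77.8, in a region nearer to Gpr84, and Nrl, a retinal relative, reached 41.5 nearer to Dcaf11. The highest of Nfe2l3 scored 41.0, 99743 bp from the gene. Nfe2 and Nfe2l3 each had 1 IL-33-only region, with Gpr84 and Snx10 nearer.

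Of 8 genes that control NRF2 and BACH1 turnover, 8 had a FOS region, 5 had 1 of 4 calls and 1 had a shared region. That was Keap1, the NRF2 inhibitor, with shared regions scoring 52.3 and 39.9, both of 4 calls, 68257 and 93607 bp away and nearer to Pde4a and Cdc37, and with an IL-33-only region on either side of the second. Syvn1 (44.5) and Rbx1 (42.5), ubiquitin ligase components, followed by score, with Vps51 and Xpnpep3 nearer to those regions. Gsk3b and Fbxl17 each had 1 IL-33-only region inside the gene.

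Of 16 targets of NRF2 and BACH1, 16 had a FOS region, 13 had 1 of 4 calls and 1 had a shared region. Txnrd1, a thioredoxin reductase, had 2 shared regions of 4 calls, scoring 39.3 at 25977 bp with Txnrd1 nearest and 35.1 at 60752 bp with Chst11 nearest, and 2 IL-33-only regions near Chst11. The highest scores belonged to the ferritin genes Ftl1 (70.3, 484 bp outside the gene) and Fth1 (69.4, 5514 bp outside it), followed by the cystine transporter Slc7a11 (51.4, inside it). Hmox1, heme oxygenase 1, had 8 FOS regions, 4 of them of 4 calls, and 0 shared. Shares with a shared region in these lists, 0 of 5, 1 of 8 and 1 of 16, stand beside 14.7% of all coding genes.

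As a check of the label, all 7 microglia marker genes counted had a FOS region of 4 calls, with the highest scores at Itgam (128), Cx3cr1 (126) and Csf1r (104.9) and the lowest at Sall1 (31.9). Among markers of other cells, all 5 border-associated macrophage genes and all 4 oligodendrocyte genes had one within 100 kb, as did 1 of 5 genes of monocytes and neutrophils, 2 of 6 of neurons, 1 of 4 of astrocytes and 2 of 3 of endothelial cells. These counts stand beside 49.1% of all coding genes. The highest scores among markers of other cells were at Pecam1 (81.2, nearer to Milr1), Gad2 (65.35, nearer to Apbb1ip) and Flt1 (61.0). The microglia markers P2ry12 and Aif1 reached 71.5 and 62.5, so the scores of the lists overlapped. A shared region was present for 4 of the 7 microglia markers, 2 of 3 endothelial genes, 1 of 5 genes of monocytes and neutrophils and 1 of 6 of neurons, and for none of the other lists, against 14.7% of coding genes. The highest region lay inside the gene for Cx3cr1, Csf1r, P2ry12 and Sall1 and outside it for Itgam, Aif1 and Tmem119. Among the markers of other cells it lay inside Mbp, of oligodendrocytes, and Slc1a2, of astrocytes. The part of other cells in the regions of the 7 genes was not tested.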

How the data were processed

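The authors deposited 1 table of merged regions on mm10, joined from a FOS peak list and an IL-33 list with HOMER mergePeaks, per the file headers. Bowtie2 and HOMER, and the builds mm10 and GRCm38, come from the submitters' processing notes. Not given in the sources used here: versions, peak calling, the role of the inputs and the assay of the IL-33 list. The deposited score is the merge's average over joined peaks, per the file headers, and all 1300 IL-33-only regions had 0. It was therefore multiplied by the number of joined peaks and divided by the number of FOS peaks; after this, 98.7% of 1517 shared regions with 1 FOS peak and a score of 10 or more were whole multiples of 0.1 once multiplied by their calls (tolerance 0.02 of a step), against 45.9% as deposited. Calls and IL-33 peaks were read from deposited peak names, taking the largest number where several peaks were joined.

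Region centres were compared with the 21887 coding genes of RefSeq GRCm38.p6 on the main chromosomes, and 3 regions elsewhere were left out. Strand and starts came from RefSeq promoters, found for 6 of the 7 genes. A genome sequence was not used here, so motifs were searched in promoters and not in regions, a departure from the plan. Shares have exact Clopper-Pearson 95% intervals, which cover counting error only. Named are all members, their shared, IL-33-only and highest regions, and, for the 3 pathway lists, genes with IL-33 list regions or the 3 highest scores, besides Hmox1, given as the classic BACH1 target; regions of 4 calls are named or given as ranges. From the planned lists, 1 relative and 1 microglia marker are not reported here. Members and lists were chosen with earlier results of these data known, and no test over genes or regions was run. Window and nearest-gene steps were tested on simulated data. Python 3.11.15, pandas 2.3.3, numpy 2.4.6 and scipy 1.17.1 were used. Smaller windows, nearest-gene assignment, leaving out each gene, calls, the deposited score and boundary definitions were the alternatives.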

Additional observations from a re-analysis of the deposited data

How the results depend on the processing

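The number of regions followed the window: 114 within 100 kb became 72 within 50 kb, 45 within 10 kb, 42 inside gene bodies and 68 with the member as nearest gene. Genes with a shared region fell to 2, Maff and Bach2, within 10 kb or inside bodies. The share of all coding genes with a shared region under these settings is not given, so this count is not compared. The share of FOS regions near a gene end was 8.89% within 10 kb, 9.52% inside bodies and 5.97% by nearest gene, against 17.3% within 100 kb, and it was 11.1% without Mafg. With FOS peaks of 2 or more calls, regions of 4 calls made up 40.5%, by construction, against 37.8% over all coding genes treated alike, and 11.4% lay near a gene end, against 23.7%. The share of shared regions stayed between 4.17% and 7.41% under the other settings. With FOS peaks limited to 4 calls, a setting chosen after seeing the data, it was 11.1%, against 9.58% over all coding genes. IL-33-only regions, which hold no FOS peak, stayed in the denominator of both. The median score ranged from 25.6 inside bodies to 30.6 with FOS peaks of 2 or more calls, against 20.35 and 26.1 over all coding genes treated alike. Both gaps were narrower than in the main setting, 28.3 against 20.6. The deposited score gave 26.9, against 19.7. The planned share of regions with an AP-1 motif was not run without a genome sequence. No paired analysis was possible because the table holds no value per library, and for the same reason no library could be left out. Depth is unknown, and 7 shared regions limit what shares can show.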

Other observations

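The 8 motifs were also counted in promoters with and without a FOS region. Of 5820 promoters of coding genes that overlapped a FOS region, 3.52% held TGACTCA, against 5.08% of the 15443 that did not. The 8-base TGACGTCA, present in the start 2 promoter of Maff, was in 3.99% of promoters on FOS regions, against 1.57% of the others. GAGGAAGT, a PU.1 site, was in 4.60% of those on FOS regions, against 2.58% of the others, and TGACNNNGC in 15.0%, against 12.2%. In the same order, TGANTCA was in 4.76% and 7.83%, TTGCNNAA in 8.14% and 10.9%, GCTGANTCA in 0.997% and 1.11%, and GGANTTTCC in 1.44% and 1.22%. Base composition was not compared, promoters of 1 gene can overlap, and these differences were not tested.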
